A study of Danio rerio with 12 samples.

Results

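Oxidative phosphorylation was examined in the adult zebrafish heart through the genes that encode its machinery. The members were chosen by gene name and not by level, as the rows for nuclear subunits of complexes I to V and for the 13 protein genes of the mitochondrial genome, which gave 103 of 22158 genes in the count table. Of these, 90 were nuclear: 36 names of complex I (nduf), 5 of complex II (sdh), 8 of complex III (uqcr), 20 of complex IV (cox), 17 of complex V (atp5) and 4 sdhaf genes, which encode assembly factors of complex II and not subunits. The 13 genes of the mitochondrial genome encode 7 subunits of complex I, 1 of complex III, 3 of complex IV and 2 of complex V.

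Complexes I to IV of the respiratory chain pass electrons from NADH and succinate to oxygen, and complexes I, III and IV pump protons across the inner mitochondrial membrane. Complex V, the ATP synthase, uses the resulting gradient to make ATP. Complex II is wholly nuclear, whereas the other complexes combine nuclear and mitochondrially encoded subunits, so that both genomes must be expressed to build them. Cardiac muscle is among the tissues richest in mitochondria, and several subunits of complex IV have paralogues that in mammals divide between striated muscle and other tissues.

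RNA-seq libraries came from ventricle and SV of *nr2f1a aco* mutants and from ventricle, atrium, SV and BA of WT zebrafish. The SV (sinus venosus) is the venous inflow of the heart, and the BA (bulbus arteriosus, spelled "bulbous" in the labels) is the outflow vessel. All fish were adults between 6 months and 1.5 years old, labelled as AB/TU where the study's methods describe the WT fish as AB/TL, and every group comprised 2 libraries, each from a pool of 20 fish. In the *aco* line a stretch of the *nr2f1a* 5′-UTR is deleted and the transcript is still made, so the level of *nr2f1a* cannot check the genotype. Mutants effectively lack an atrium, and their SV is an enlarged venous structure. Titles and genotype labels name the mutant libraries *aco* although their tissue labels read WT, and they are treated as mutant here.

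Libraries held 28325098 to 60532949 counts. Levels of 1 gene across tissues are given as CPM (counts brought to a common library size, with TMM scaling factors of 0.605 to 1.54), and levels of different genes are compared as the deposited FPKM, which is also scaled by gene length. Differences are log2 fold changes from edgeR, fitted over the 19145 genes that passed its expression filter. The fit held 1 RUVs factor, a term for unwanted variation estimated from the differences between libraries of the same group. edgeR reports no standard error. The standard errors (SE) shown are the absolute log2 fold change divided by the square root of its F statistic. A gene is termed called at a Benjamini-Hochberg adjusted p below 0.05 over all genes tested. All 13 mitochondrially encoded genes and 89 of the 90 nuclear genes were tested, the exception being *cox5b1*, with at most 13 counts in any library. Nothing in the labels says how the pools of a group were separated, and p-values measure only the spread between these libraries.

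Both gene sets took several times more of the RNA in the heart chambers than in the vessels. The 90 nuclear genes made up 3.94% and 5.43% of all counts in mutant ventricle and 1.303% and 0.902% in mutant SV. Their share was 7.48% and 5.74% in WT ventricle, 3.78% and 4.14% in WT atrium, 0.912% and 0.948% in WT SV and 0.898% and 1.09% in WT BA. The 13 mitochondrially encoded genes made up 14.9% and 17.3% in mutant ventricle and 3.44% and 4.63% in mutant SV. Their share was 20.2% and 15.3% in WT ventricle, 18.3% and 12.2% in WT atrium, 5.002% and 2.51% in WT SV and 4.39% and 2.399% in WT BA. For both sets every chamber library was above every vessel library, and both WT ventricle libraries had a higher nuclear share than any other library.

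**Figure D1:**
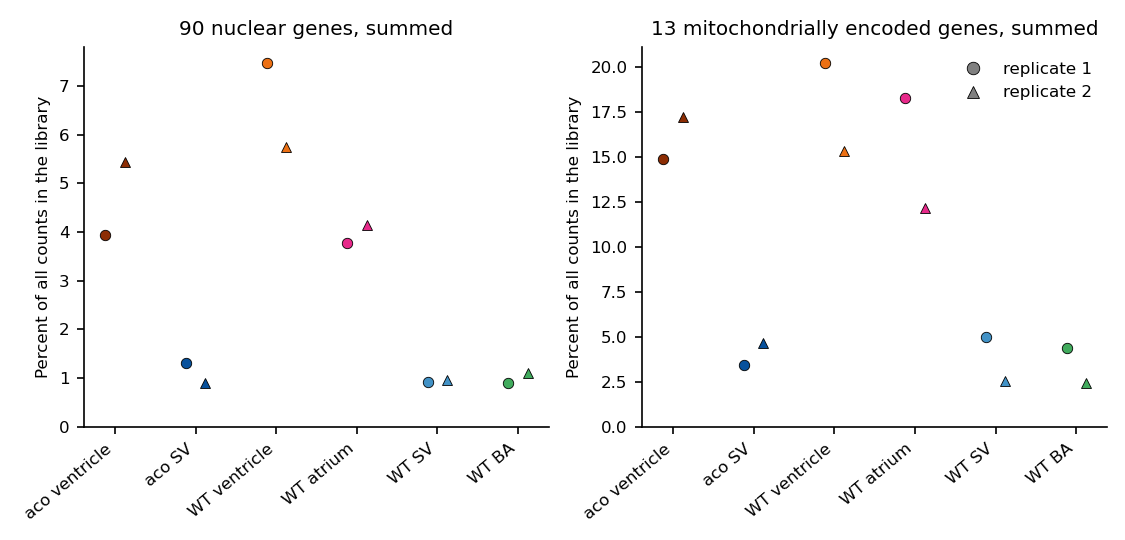
Percent of the counts of each library on the 90 nuclear genes (left) and on the 13 mitochondrially encoded genes (right), 1 point per library, circles for replicate 1 and triangles for replicate 2. Every chamber library lies above every vessel library in both panels. The WT SV libraries lie close together for the nuclear genes (0.912% and 0.948%) and apart for the mitochondrially encoded genes (5.002% and 2.51%).

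Nearly all subunits were more abundant in the ventricle than in the SV of WT fish. Of 89 nuclear genes, 85 were called higher and 1 lower, where 16.2% of all genes were called higher and 19.4% lower. The median log2 fold change was 3.503 over the nuclear genes and -0.21 over all genes. All 13 mitochondrially encoded genes were called higher, with a median of 3.31. Against the BA, 85 nuclear genes were called higher in WT ventricle and 1 lower (all genes 12.9% higher and 13.8% lower), with a median of 3.499. All 13 mitochondrially encoded genes were again called higher, with a median of 3.21.

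The summed cardiomyocyte markers moved with these differences, although *myh6* and *myl4* of the list were lower in WT ventricle than in WT SV. The 20 of 22 listed markers found in the table summed to 69615 and 194947 CPM in mutant ventricle and 3615 and 1697 CPM in mutant SV. Their sum was 143626 and 285328 CPM in WT ventricle, 68675 and 116605 CPM in WT atrium, 4517 and 2941 CPM in WT SV and 6933 and 3020 CPM in WT BA, and none of the 20 was at 0 in both libraries of any group. In bulk RNA, fewer cells of a type and less RNA per cell cannot be told apart. The 6 of 8 listed erythrocyte markers found were lower in the ventricle, with 3897 and 6498 CPM in WT ventricle and 46935 and 94675 CPM in WT SV. The 11 smooth muscle markers summed to 241 and 192 CPM in WT ventricle and 3387 and 2638 CPM in WT SV. This SV sum was mostly *acta2* (1915 and 1271 CPM) and *tagln* (997 and 994 CPM), and the markers did not all go that way. *smtnb* had 6.61 and 8.16 CPM in WT ventricle and 1.12 and 0.815 CPM in WT SV. *myocd* was also higher in both ventricle libraries, *cnn1b* overlapped, and the others were lower. The part of these cell types in the results was not tested.

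The complexes moved to a similar extent. Between ventricle and SV of WT fish the median log2 fold change was 3.49 over the 36 genes of complex I, 2.89 over the 5 of complex II, 3.67 over the 8 of complex III, 3.615 over the 19 tested of complex IV and 3.505 over the 17 of complex V. All genes of complexes II, III and V were called higher, as were 35 of complex I and 16 of complex IV. The 4 sdhaf assembly factors were called higher as well, with a median of 2.13. Complex IV held the widest range, -1.47 to 5.73.

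In complex I, *ndufa4* and *ndufa9a* had the largest differences. The product of *ndufa4* was first assigned to complex I, as its name says, and is now placed in complex IV. *ndufa4* had 823 and 2095 CPM in WT ventricle and 44.98 and 16.7 CPM in WT SV (log2 fold change 5.74 ± 0.91, SE, adjusted p = 0.000704). *ndufa9a*, for an accessory subunit, had 805 and 666 CPM in WT ventricle and 39.5 and 43.02 CPM in WT SV (4.21 ± 0.46). Among genes with at least 10 FPKM on average, the smallest difference was that of *ndufv3*, with 211 and 143 CPM in WT ventricle and 33.2 and 34.6 CPM in WT SV (2.285 ± 0.38). Both ventricle libraries were above both SV libraries in all of these genes, as for 31.6% of all genes. Here and in the complexes below, the genes with the largest differences were picked from this same comparison, so their separation adds no support. The replicates of *ndufa4* were the farthest apart.

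In complex II, *sdhb*, the iron-sulfur subunit, and *sdha*, the flavoprotein subunit, had log2 fold changes of 3.48 and 3.44. *sdhb* had 1095 and 790.1 CPM in WT ventricle and 78.6 and 82.2 CPM in WT SV. *sdhc*, a membrane anchor, had 602 and 572 CPM in WT ventricle and 90.8 and 90.2 CPM in WT SV (2.74). The ventricle libraries of both genes were above the SV libraries, as for 31.6% of all genes. The second anchor has a pair of genes in zebrafish, and *sdhdb* took 87.4% to 98.8% of the FPKM of the pair over the 12 libraries, with *sdhda* the minor gene throughout.

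In complex III, *uqcrfs1*, the Rieske iron-sulfur protein that passes electrons onward to cytochrome c1, had 1915 and 1312 CPM in WT ventricle and 91.01 and 87.2 CPM in WT SV (4.06 ± 0.45). *uqcr10*, for a small subunit, had 989.7 and 745 CPM in WT ventricle and 50.5 and 62.5 CPM in WT SV (3.89 ± 0.45). *uqcrh*, the hinge protein, had the smallest difference, with 547 and 469 CPM in WT ventricle and 64.9 and 62.2 CPM in WT SV (2.89 ± 0.43). The ventricle libraries were above the SV libraries in each, as for 31.6% of all genes. Neither of the core protein genes *uqcrc2a* and *uqcrc2b* was minor, with *uqcrc2a* at 36.2% to 60.4% of the FPKM of the pair over the 12 libraries. Its share was 52.6% and 60.4% in WT SV and 36.2% and 41.25% in WT BA, so the larger gene differed between these vessels.

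In complex V, *atp5h*, a subunit of the peripheral stalk, had 2994 and 2482 CPM in WT ventricle and 133 and 143 CPM in WT SV (4.27 ± 0.48, adjusted p = 0.0001075). *atp5g1*, one of several genes for the c subunit of the rotor, had 2334 and 1880 CPM in WT ventricle and 107 and 147 CPM in WT SV (4.05 ± 0.46). The smallest difference was that of *atp5s*, which RefSeq now names *dmac2l* and which is not a core subunit. It had 51.5 and 52.6 CPM in WT ventricle and 17.7 and 24.4 CPM in WT SV (1.45 ± 0.46, adjusted p = 0.0288). Its call was lost in 10 of 19 alternative fits, among them that without the first WT SV library (adjusted p = 0.156) and that with library totals in place of TMM (log2 fold change 0.69).

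The mitochondrially encoded genes spanned a wide range of levels. *COX1*, the catalytic core of complex IV, had 76513 and 95332 CPM in WT ventricle and 14706 and 8001 CPM in WT SV (2.88 ± 0.3992). *ATP6*, a membrane subunit of complex V that takes part in proton flow, had 55573 and 37067 CPM in WT ventricle and 4144 and 2101 CPM in WT SV (3.61 ± 0.48). *CYTB*, for cytochrome b of complex III, had 28804 and 24277 CPM in WT ventricle and 2641 and 1376 CPM in WT SV (3.54 ± 0.49). For these genes, as for all 13, both ventricle libraries were above both SV libraries, which held for 31.6% of all genes.

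Within the set the complex IV genes had the lowest log2 fold changes, 2.88 for *COX1*, 2.26 for *COX2* and 2.504 for *COX3*, the remaining subunits of its core. The 7 complex I genes lay at 3.09 to 3.54, and *ATP8*, the other mitochondrially encoded subunit of complex V, at 3.55. DESeq2 called 10 of the 13 higher in WT ventricle than SV (all genes 17.4% higher and 22.8% lower). Over the BA it called 10 (all genes 15.0% higher and 16.7% lower), with similar fold changes. For *COX2*, *COX3*, *ATP6* and *CYTB* its own standard errors were larger than the SE derived from edgeR, and the cause was not tested. DESeq2 called 9 higher in WT atrium than in either vessel and 9 higher in mutant ventricle than SV (all genes 12.4% higher and 13.8% lower in the mutants). By FPKM, *ATP6* averaged 67234 and *ND6*, the only one of the 13 encoded on the other strand, 264 in WT ventricle, against a nuclear maximum of 5760 for *atp5g3b*.

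The atrium differed from the vessels in the same direction. Of 89 nuclear genes, 83 were called higher in WT atrium than SV and 0 lower by edgeR, with 85 at an unadjusted p under 0.05 (33.1% of all genes), where 10.9% of all genes were higher and 9.61% lower. DESeq2 called 83 higher and 1 lower (all genes 12.1% higher and 13.1% lower). Against the BA, edgeR called 84 higher and 0 lower, with 84 at an unadjusted p under 0.05, against 30.9% of all genes (called 10.1% higher and 8.46% lower). DESeq2 called 84 higher and 0 lower over the BA (all genes 12.9% higher and 11.8% lower). For the nuclear genes the median log2 fold change was 2.435 over the SV and 2.41 over the BA. All 13 mitochondrially encoded genes were called higher in both comparisons, with medians of 2.44 and 2.41.

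*uqcrfs1* had 739 and 774 CPM in WT atrium, 91.01 and 87.2 CPM in WT SV and 97.7 and 104 CPM in WT BA. *atp5h* had 1037 and 1085 CPM in WT atrium, 133 and 143 CPM in WT SV and 140.5 and 167 CPM in WT BA. *COX1* had 53461 and 49886 CPM in WT atrium, 14706 and 8001 CPM in WT SV and 12214 and 7242 CPM in WT BA. The atrial libraries were above all vessel libraries in each of these genes, of complexes III, V and IV in turn. Of all genes, 29.7% had both atrial libraries above both SV libraries and 28.85% had them above both BA libraries.

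In the mutants the ventricle likewise stood above the SV. Of 89 nuclear genes, 84 were called higher in mutant ventricle and 1 lower (all genes 11.1% higher and 9.86% lower), with a median of 2.55. All 13 mitochondrially encoded genes were called higher, with a median of 2.69. *cox4i1l*, a paralogue of subunit 4 of complex IV, had 1571 and 3527 CPM in mutant ventricle and 135 and 23.8 CPM in mutant SV (5.76 ± 0.76, adjusted p = 0.000434). *ndufa4* had 543 and 1042 CPM in mutant ventricle and 44.1 and 8.21 CPM in mutant SV (5.645 ± 0.94). The ventricle libraries were above the SV libraries in both genes, as for 27.45% of all genes, although the replicates within each tissue were well apart.

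**Figure D2:**
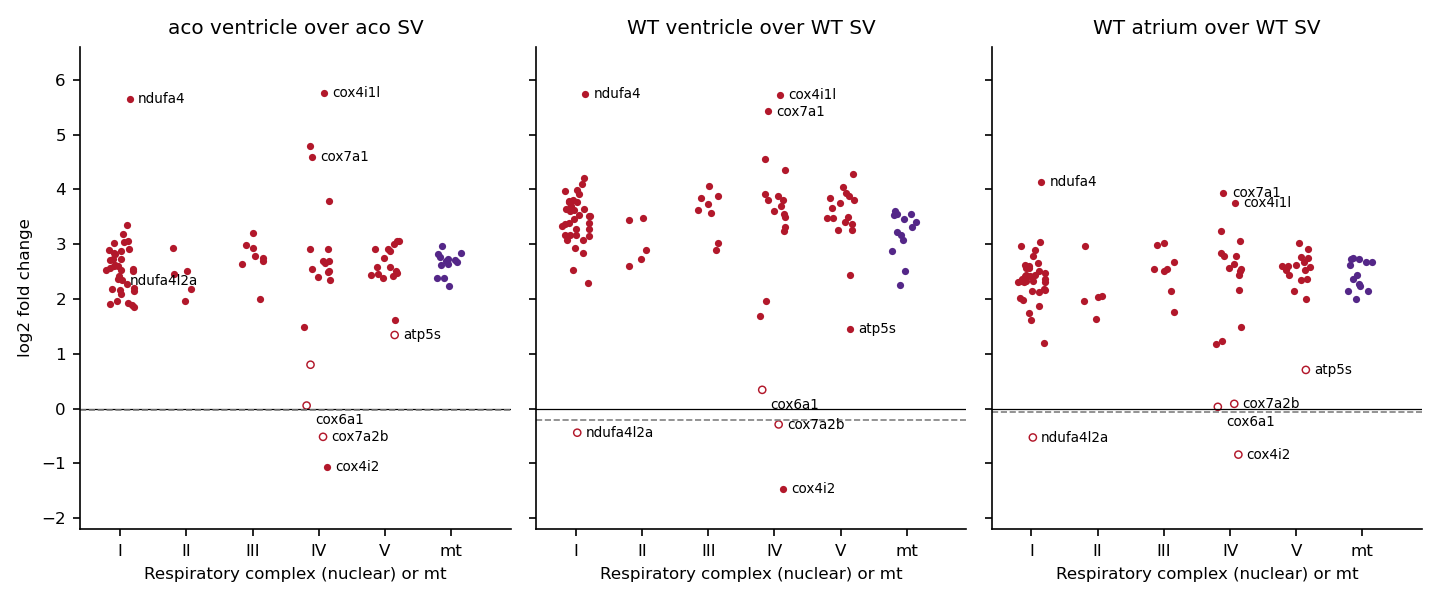
Log2 fold changes (edgeR, vertical axis) of ventricle over SV in *aco* mutants and in WT fish and of WT atrium over WT SV, 1 point per gene, arranged by nuclear complex I to V and the mitochondrially encoded genes (mt). Filled points were called at an adjusted p below 0.05, open points were not, and the dashed line is the median of all genes. The nuclear medians are 2.55, 3.503 and 2.435, and *cox4i2* of complex IV is below 0 in each panel (-1.06, -1.47 and -0.84).

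The genes that departed from the set belonged mostly to paralogue families. *cox4i2*, whose mammalian counterpart is a subunit 4 isoform of lung and oxygen-sensing cells, was the 1 gene called lower in the ventricle. It had 11.45 and 8.31 CPM in WT ventricle, 27.8 and 17.7 CPM in WT SV and 20.8 and 18.3 CPM in WT BA, with both ventricle libraries below all vessel libraries. Of all genes, 39.1% had both ventricle libraries below both SV libraries and 31.5% had them below both BA libraries. Its log2 fold change was -1.47 ± 0.31 over the SV (adjusted p = 0.00424) and -1.21 ± 0.31 over the BA (adjusted p = 0.0134). The same gene was called lower in mutant ventricle, with 8.86 and 16.9 CPM, than in mutant SV, with 16.9 and 32.5 CPM, the closest libraries of the tissues being nearly equal (-1.06 ± 0.31, adjusted p = 0.03).

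The calls of *cox4i2* depended on single libraries. Over the WT SV the call was lost in 5 of 19 alternatives, without the first WT SV library (adjusted p = 0.0548), without the first or the second WT ventricle library (0.0656 and 0.0568) and without the factor (0.0613) among them. It was lost in 5 of 19 over the WT BA, among them without the first WT BA library (0.0581) and without the first or second WT ventricle library (0.1765 and 0.131). In the mutants it was lost in 9 of 19, with the log2 fold change at -0.61 without the second mutant SV library.

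The other genes of the family were called higher in the ventricle. *cox4i1l* had 2927 and 5497 CPM in WT ventricle and 115 and 79.2 CPM in WT SV (5.73 ± 0.73). *cox4i1* had 2116 and 2295 CPM in WT ventricle and 259 and 212 CPM in WT SV (3.23 ± 0.33). By FPKM, *cox4i1l* took 53.6% and 64.1% of the family in mutant ventricle and 29.2% and 7.102% in mutant SV. Its share was 55% and 67.9% in WT ventricle, 32.9% and 53.3% in WT atrium, 26.6% and 23.6% in WT SV and 15.2% and 9.097% in WT BA. All chamber libraries were thus above all vessel libraries in this share, and *cox4i2* took at most 9.04% in any library.

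*cox6a1* and *cox6a2* divided in a similar way. In mammals COX6A2 is the heart and skeletal muscle isoform and COX6A1 the isoform of other tissues. *cox6a2* had 5713 and 4397 CPM in WT ventricle, 1744 and 2380 CPM in WT atrium, 215 and 283 CPM in WT SV and 211.5 and 289 CPM in WT BA. *cox6a1* had 200.3 and 171 CPM in WT ventricle, 120.2 and 180.5 CPM in WT atrium, 129 and 166 CPM in WT SV and 169 and 242 CPM in WT BA. The log2 fold change of ventricle over SV was 4.36 ± 0.47 for *cox6a2* and 0.34 ± 0.35 for *cox6a1*, which was not called in any comparison of a chamber with a vessel (adjusted p = 0.483 in this one).

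By FPKM, *cox6a2* took 78.9% and 90.7% of the pair in mutant ventricle and 40.6% and 25.7% in mutant SV. Its share was 94.15% and 93.5% in WT ventricle, 89.1% and 88.2% in WT atrium, 48.5% and 49.01% in WT SV and 41.4% and 40.2% in WT BA. All chamber libraries were above all vessel libraries, with *cox6a1* at or above an equal share in each vessel library.

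The cox7a family held genes of both kinds. *cox7a1*, whose mammalian counterpart is the muscle isoform, had 1734 and 1590 CPM in WT ventricle and 37.4 and 42.25 CPM in WT SV (5.42 ± 0.55, adjusted p = 6.49e-05). *cox7a2a* had 182 and 224 CPM in WT ventricle and 59.4 and 72.85 CPM in WT SV (1.69 ± 0.33, adjusted p = 0.00232). *cox7a2b* had 19.6 and 28.2 CPM in WT ventricle and 35.6 and 27.7 CPM in WT SV (-0.29 ± 0.37, adjusted p = 0.576), values that overlapped. *cox7a3*, which RefSeq now names *cox7a2l* after a factor of respiratory supercomplexes, was called higher in the ventricle (3.69).

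By FPKM, *cox7a1* took 40.6% and 57.3% of the family in mutant ventricle and 12.9% and 8.42% in mutant SV. Its share was 60.35% and 56.8% in WT ventricle, 41.6% and 45.5% in WT atrium, 11.1% and 11.9% in WT SV and 19.04% and 10.6% in WT BA, and in every vessel library *cox7a2a* had the largest share (42.3% to 59.3%). For the smallest subunit of complex IV the shift was less wide, with *cox8b* at 71.4% to 81.6% of the cox8 pair over the chamber libraries and 41.85% to 59.05% over the vessel libraries. *cox8a* was called higher in WT ventricle than in the SV (1.96) and not over the BA, with 620 and 488 CPM in WT ventricle and 238.5 and 354.5 CPM in WT BA (0.8982 ± 0.36, adjusted p = 0.0921).

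Other families kept their makeup across tissues. The genes for the c subunit of the ATP synthase encode the same mature protein in mammals. *atp5g3b* took 55.7% to 60.7% of the FPKM of the zebrafish genes over the chamber libraries and 53.9% to 60.7% over the vessel libraries, *atp5g1* 31.1% to 33.8% and 26.6% to 33.4%, and *atp5g3a* 7.601% to 11.5% and 10.2% to 17.7%. *cox5aa* took 70.2% to 83.9% of the cox5a pair over the chamber libraries and 70.95% to 86.5% over the vessel libraries, the rest being *cox5ab*. In the cox5b pair *cox5b1* was nearly absent, and *cox5b2* took 99.7% to 100% over the 12 libraries.

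The cox6b pair set the atrium apart. *cox6b1* took 34.9% and 45.2% of the FPKM of the pair in WT atrium, and 54.25% to 68.3% over the other 10 libraries, with *cox6b2* making up the rest. The ndufa4 family was dominated by *ndufa4l*, which RefSeq names *ndufa4a*, at 85.01% to 99.4% of FPKM over the 12 libraries. *ndufa4l2a*, whose mammalian relative is induced in low oxygen, was rare in every group. It had 3.995 and 3.51 CPM in mutant ventricle and 3.595 and 0.289 CPM in mutant SV. It had 0.2702 and 1.47 CPM in WT ventricle, 0.3255 and 1.42 CPM in WT atrium, 1.303 and 1.7 CPM in WT SV and 0.0816 and 0.07804 CPM in WT BA. Replicates of this gene differed several-fold in mutant SV, WT ventricle and WT atrium, and its difference between WT ventricle and WT SV was not called (-0.44 ± 0.59, adjusted p = 0.594). It was among the genes called higher in mutant ventricle than in mutant SV, although those libraries overlapped. That call was lost in 3 of 19 alternatives, among them without the factor (log2 fold change 0.948, adjusted p = 0.602).

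**Figure D3:**
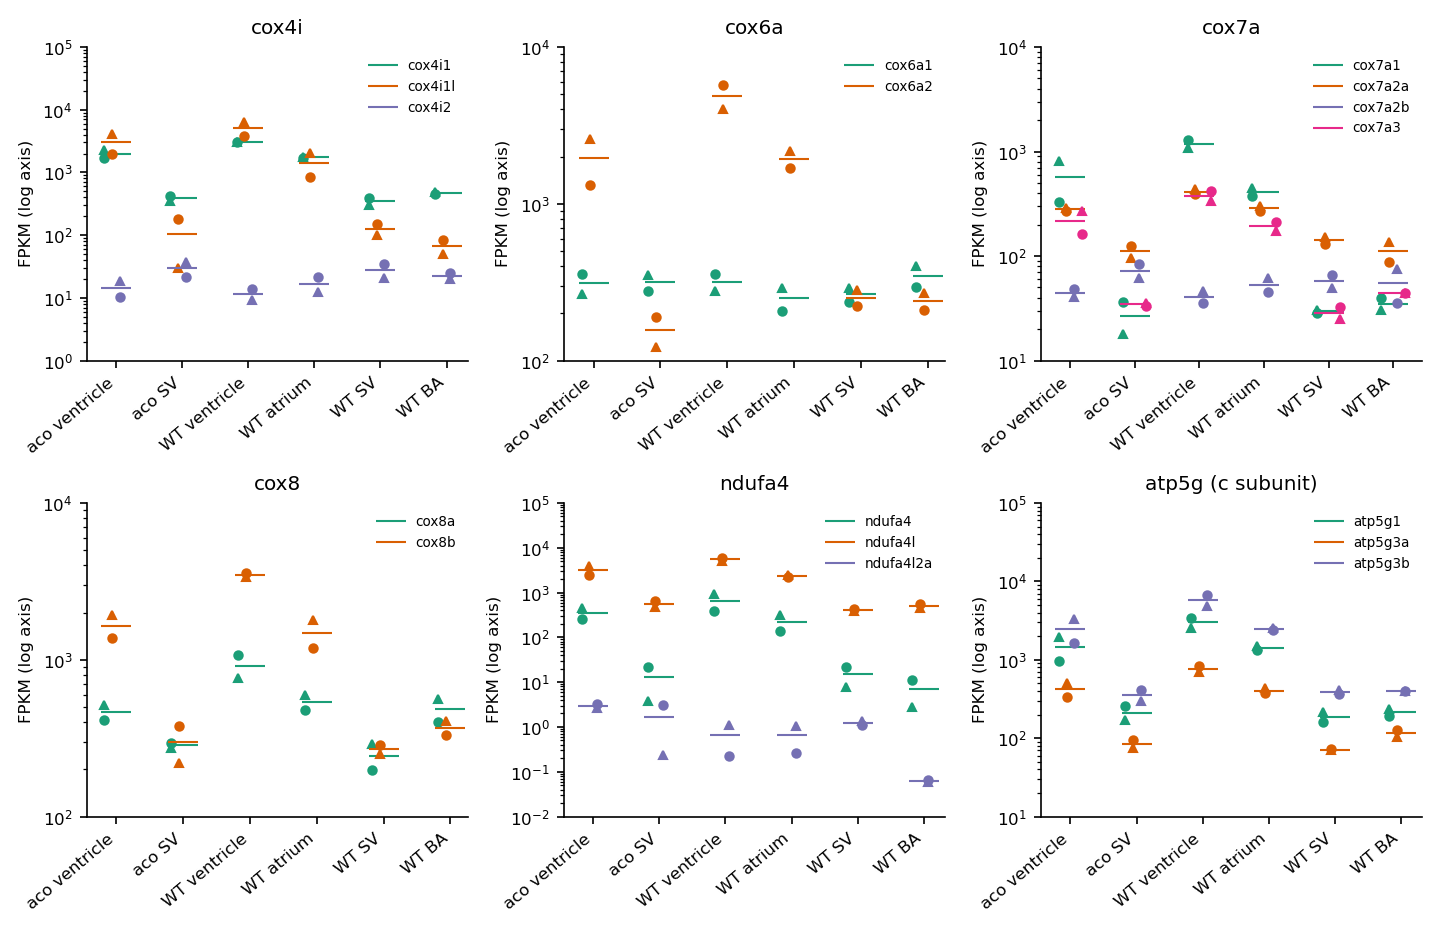
Deposited FPKM (log axis) of the genes of 6 paralogue families in each library, circles for replicate 1, triangles for replicate 2 and bars for the mean of the 2 libraries of a group. *cox6a2*, *cox4i1l*, *cox7a1* and *cox8b* are highest in WT ventricle (means of 4894, 5107, 1177 and 3486 FPKM), *cox6a1* and *cox7a2b* keep within 207 to 398 and 35.5 to 83.8 FPKM over the 12 libraries, and the atp5g genes move in parallel.

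Most nuclear genes were also higher in the ventricle than in the atrium of WT fish, but few were called. Their median log2 fold change was 1.07, against -0.07 over all genes, and 0.64 against -0.47 when libraries were scaled by their totals. Both ventricle libraries were above both atrial libraries for 81 of 89 nuclear genes, as for 23.0% of all genes. edgeR called 2 higher and 0 lower (all genes 1.98% higher and 3.12% lower), while 67 had an unadjusted p under 0.05, against 21.8% of all genes, and DESeq2 called 45 higher and 0 lower (all genes 5.26% higher and 7.39% lower). Of the 13 mitochondrially encoded genes edgeR called 0, with 2 at an unadjusted p under 0.05 and a median of 0.79, and DESeq2 called 2.

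The number of calls between these chambers rested on single libraries. It rose without the first or the second mutant ventricle library. Each such fit estimated the scaling, the RUVs factor and the shared spread anew, and the cause of the rise was not tested. Few or no calls were left without either atrial library, either WT ventricle library or the second WT SV library. The share of all genes called in these fits was not taken, so whether the change in calls was particular to the members is not known. The median log2 fold change was between 0.89 and 1.21 in these fits, so that the direction was kept.

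The called genes were *cox6b1* and *sdha*, a number near the share of all genes called higher (1.98%). *cox6b1*, for a subunit of complex IV that faces the intermembrane space, had 1727 and 1683 CPM in WT ventricle and 355 and 665 CPM in WT atrium (1.82 ± 0.39, adjusted p = 0.0248). *sdha* had 732 and 633 CPM in WT ventricle and 216 and 274 CPM in WT atrium (1.47 ± 0.34, adjusted p = 0.0347). Both ventricle libraries were above both atrial libraries in each gene, as for 23.0% of all genes. The call of *cox6b1* was lost in 4 of 19 alternatives and that of *sdha* in 7, both without the first atrial library (adjusted p = 0.3303 and 0.367), without the second (0.0558 and 0.09075) and without the first WT ventricle library (0.1995 and 0.271). For *sdha* it was also lost without the second WT ventricle library (0.06399) or the second WT SV library (0.05055). The sum of cardiomyocyte markers was 143626 and 285328 CPM in WT ventricle and 68675 and 116605 CPM in WT atrium, and that of erythrocyte markers 3897 and 6498 CPM and 29928 and 29647 CPM. The cardiomyocyte markers went different ways between the chambers. *vmhcl* had 22124 and 106087 CPM in WT ventricle and 169 and 37.1 CPM in WT atrium. *myh6* had 23.2 and 120.7 CPM in WT ventricle and 1645 and 8450 CPM in WT atrium. *tcap*, *nppa* and *myl4* were also higher in both atrial libraries. The part of these cell types was not tested.

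SV and BA of WT fish differed little in these genes. edgeR called 2 of 89 nuclear genes higher in the SV and 0 lower, where 9.37% of all genes were higher and 8.69% lower, and 8 had an unadjusted p under 0.05, against 32.7% of all genes. DESeq2 called 2 higher and 1 lower, *cox8a* (-0.97), where it called 12.8% of all genes higher and 2097 of the 19145 genes lower. The median log2 fold change was -0.09534 over the nuclear and -0.01 over the mitochondrially encoded genes, of which edgeR called 0, with 0 at an unadjusted p under 0.05, and DESeq2 0. The 7 of 8 listed skeletal muscle markers found summed to 688 and 276 CPM in WT SV and 136 and 33.3 CPM in WT BA. Of these, *ckma* overlapped, and the others were higher in both SV libraries, as for 31.61% of all genes. The part of skeletal muscle was not tested.

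*ndufa4l2a* was called higher in the SV, with 57 and 73 counts in its libraries and 3 and 3 counts in those of the BA. The ratio of the summed counts per library size was 18.8, with an exact 95% counting interval of 8.41 to 52.2 that covers counting error only (adjusted p = 0.0032). The call was lost without the factor (adjusted p = 0.0556). *atp5s* had 17.7 and 24.4 CPM in WT SV and 3.915 and 10.4 CPM in WT BA (1.54 ± 0.45, adjusted p = 0.03465). Its SV libraries were above its BA libraries, as for 31.61% of all genes. Its call was lost in 7 of 19 alternatives, among them without the first BA library (log2 fold change 1.01), either SV library or either atrial library.

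In the SV no member was called between mutant and WT fish. edgeR called 0 nuclear and 0 mitochondrially encoded genes (all genes 0.293% higher and 1.25% lower), and DESeq2 0 and 0 (all genes 1.72% higher and 3.78% lower). At an unadjusted p under 0.05 there were 1 nuclear and 0 mitochondrially encoded genes, against 13.97% of all genes. The median log2 fold change was -0.03 over the nuclear genes, 0.08 over the mitochondrially encoded genes and -0.01 over all genes. With library totals the nuclear median was 0.2004, against 0.21 over all genes. Leaving out the first or the second mutant SV library moved the nuclear median to -0.28 and 0.27.

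The mutant SV libraries differed from each other in the genes with the steepest chamber pattern. *cox5b2*, for a peripheral subunit of complex IV, had 52.4 and 20.3 CPM in mutant SV and 72.97 and 119 CPM in WT SV (-1.595 ± 0.59, adjusted p = 0.2396), with both mutant libraries the lower, as for 23.56% of all genes. It was called without the first or the second mutant ventricle library (adjusted p = 0.0407 and 0.0424). *cox4i1l* had 135 and 23.8 CPM in mutant SV and 115 and 79.2 CPM in WT SV (-1.12 ± 0.67). *ndufa4* had 44.1 and 8.21 CPM in mutant SV and 44.98 and 16.7 CPM in WT SV (-1.09 ± 0.84). *COX1* had 10306 and 12742 CPM in mutant SV and 14706 and 8001 CPM in WT SV (0.09 ± 0.38). The genotypes overlapped in *cox4i1l*, *ndufa4* and *COX1*, and in *cox5b2*, *cox4i1l* and *ndufa4* the second mutant library was the lowest. The summed cardiomyocyte markers were also lowest in that library, at 3615 and 1697 CPM in mutant SV and 4517 and 2941 CPM in WT SV. This was a sum of markers that went different ways. *vmhcl* had 408 and 227 CPM in mutant SV and 10.7 and 5.4 CPM in WT SV, and *pln* was also higher in both mutant libraries. *myh6* had 39.7 and 5.51 CPM in mutant SV and 304 and 202 CPM in WT SV. The part of cardiomyocytes was not tested.

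In the ventricle the nuclear genes were lower in mutants by about the spread of the mutant replicates. Their summed CPM differed 2.12-fold between the mutant replicates and 1.17-fold between the WT replicates. Over WT ventricle the median log2 fold change of the nuclear genes was -0.96, against 0.02 over all genes, and 85 of 89 nuclear genes were below 0. With libraries scaled by their totals it was -0.54, with 78 of 89 below 0 and a median of all genes at 0.53, which left the nuclear genes at -1.08 relative to it. Both mutant libraries were below both WT libraries for 76 of 89 genes, as for 23.5% of all genes. edgeR called 0 (all genes 0.167% higher and 0.104% lower), 53 had an unadjusted p under 0.05, against 14.3% of all genes, and DESeq2 called 0 higher and 3 lower, where it called 2.53% of all genes higher and 1.51% lower. The medians were -0.97 in complex I, -0.72 in complex II, -1.03 in complex III, -0.95 in complex IV and -0.98 in complex V.

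The few nuclear genes that DESeq2 called were *ndufb2*, *uqcr10* and *cox8b*. *ndufb2*, for an accessory subunit of complex I, had 115 and 197 CPM in mutant ventricle and 434 and 386 CPM in WT ventricle (-1.42 ± 0.39, adjusted p = 0.151 by edgeR). *uqcr10* had 189 and 444 CPM in mutant ventricle and 989.7 and 745 CPM in WT ventricle (-1.395 ± 0.42, adjusted p = 0.177 by edgeR). *cox8b* had 817 and 1231 CPM in mutant ventricle and 2088 and 2170 CPM in WT ventricle (-1.196 ± 0.37, adjusted p = 0.185 by edgeR). In each of them the first mutant library was the lowest and the second stood between it and the WT libraries.

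Summed over the nuclear genes, the level was 33219 and 70343 CPM in mutant ventricle and 111214 and 94913 CPM in WT ventricle. The summed cardiomyocyte markers were 69615 and 194947 CPM in mutant ventricle and 143626 and 285328 CPM in WT ventricle, also lowest in the first mutant library, and their part was not tested. Without that library the median log2 fold change was -0.56. Without the second mutant library it was -1.69, with *uqcr10* at -2.26 and *atp5o*, for a subunit of the ATP synthase stalk, at -2.12, genes picked from that fit.

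The nuclear genes that were not below 0 were *ndufa4l2a* (1.44 ± 0.6006, adjusted p = 0.315), *cox4i2* (0.76), *sdhda* (0.04) and *atp5ia* (0.04), a small membrane subunit of the ATP synthase. *ndufa4l2a*, with 3.995 and 3.51 CPM in mutant ventricle and 0.2702 and 1.47 CPM in WT ventricle, had both mutant libraries above the WT libraries, as for 23.71% of all genes. The others overlapped. *ndufb2*, *atp5o* and *atp5ia* were named after their values were seen.

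The mitochondrially encoded genes were less clearly lower in mutant ventricle. Their median log2 fold change was -0.51, and 0.06 when libraries were scaled by their totals, a scaling that shifted the median of all genes by 0.51 and left the mitochondrially encoded genes -0.47 relative to it. edgeR called 0, with 0 at an unadjusted p under 0.05, and DESeq2 called 0. *COX1* had 55965 and 67356 CPM in mutant ventricle and 76513 and 95332 CPM in WT ventricle (-0.4021 ± 0.39), with both mutant libraries the lower, as in 6 of 13 genes and 23.5% of all genes. *CYTB* had 13280 and 29073 CPM in mutant ventricle and 28804 and 24277 CPM in WT ventricle (-0.05 ± 0.45), values that overlapped. The fold changes are adjusted for the RUVs factor, which was 1.091 and -0.2296 in mutant ventricle and -1.717 and 0.384 in WT ventricle. The factor was 2.07 and -0.4787 in mutant SV and -0.2061 and 0.2605 in WT SV. How far this adjustment moved the genotype differences is not given here.

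The genotype difference was then compared between the tissues, as its effect in the SV minus its effect in the ventricle. The median of this interaction was 0.86 over the nuclear genes, 0.58 over the mitochondrially encoded genes and -0.11 over all genes. edgeR called 0 nuclear and 0 mitochondrially encoded genes (all genes 0.0209% higher and 0.178% lower), and DESeq2 0 and 0 (all genes 1.17% higher and 2.23% lower). At an unadjusted p under 0.05 there were 12 nuclear and 0 mitochondrially encoded genes, against 12.2% of all genes. A difference between the tissues in the effect of *aco* was therefore not detected for any single member.

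**Figure D4:**
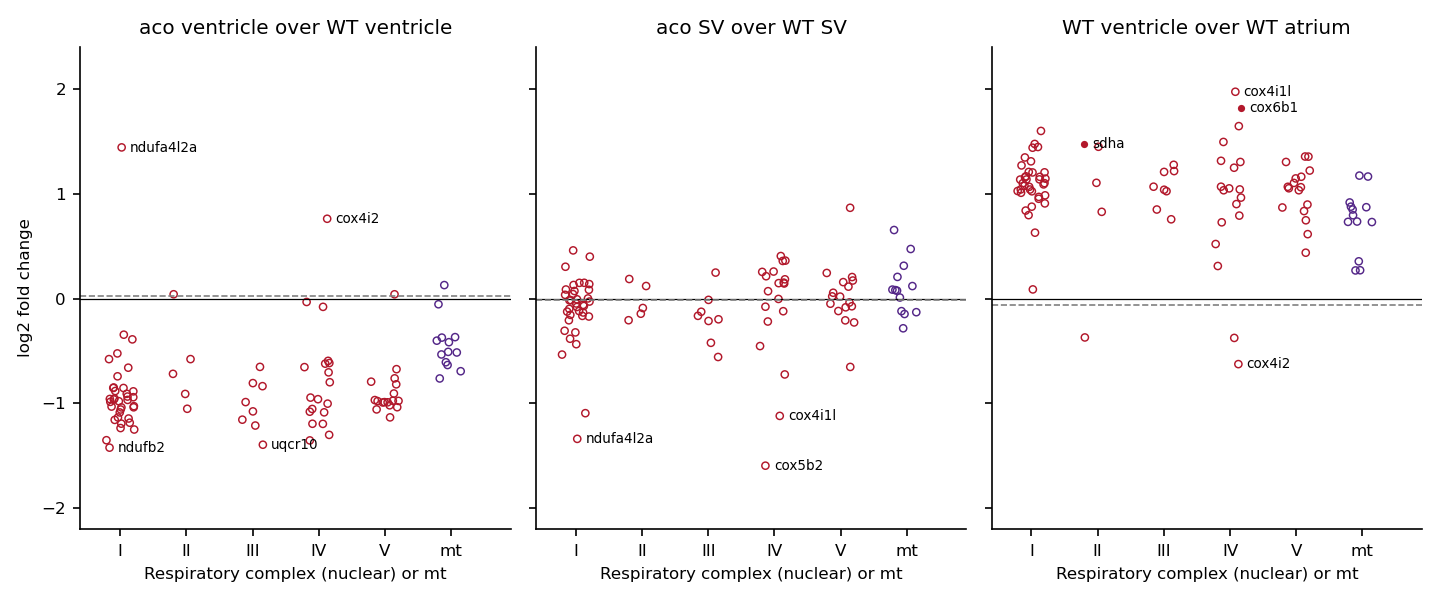
Log2 fold changes (edgeR, vertical axis) of *aco* over WT ventricle, *aco* over WT SV and WT ventricle over WT atrium, 1 point per gene, with points and colors as in the plot of chambers over SV. The nuclear medians are -0.96, -0.03 and 1.07. Filled points are *cox6b1* and *sdha* in the panel of ventricle over atrium.

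Replicates differed more in the mitochondrially encoded than in the nuclear genes in 5 of 6 groups. Summed over the 13 mitochondrially encoded genes, the higher library held 1.555 times the lower in mutant SV, 1.19 in WT ventricle, 1.43 in WT atrium, 1.885 in WT SV and 1.86 in WT BA. The ratios of the nuclear sums were 1.25 in mutant SV, 1.17 in WT ventricle, 1.15 in WT atrium, 1.1 in WT SV and 1.195 in WT BA. The exception was mutant ventricle, with ratios of 1.78 for the mitochondrially encoded and 2.12 for the nuclear sum. In all 6 groups the library with more mitochondrially encoded RNA had the lower value of the RUVs factor, which held in 2 of 6 groups for the nuclear sum. The factor was estimated from the same libraries, so that these values only describe it.

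*ND6* went against most other mitochondrially encoded genes between replicates in some groups and with all of them in others. In mutant ventricle it had 168 and 83.9 CPM, where the other 12 genes were all higher in the second library, among them *ND5*, its neighbor on the genome, with 1181 and 2142 CPM. In mutant SV it had 22.85 and 19.02 CPM, and 11 of 12 went the other way, the exception being *ND5* (206 and 200.5 CPM). In WT ventricle *ND6* had 89 and 194.5 CPM, with 9 of 12 going the other way, whereas *ND5* (2056 and 2505 CPM), *ND1* (10040 and 10327 CPM) and *COX1* (76513 and 95332 CPM) were also higher in the second library. In WT atrium *ND6* had 46.2 and 81.3 CPM, with 11 of 12 going the other way, among them *ND5* (1410 and 1220 CPM), and *ND4L* as the exception. In WT SV (15.1 and 13.3 CPM) and WT BA (25.8 and 15.7 CPM) all 12 were higher in the same library as *ND6*. The library with the lower factor held more *ND6* in 2 of 6 groups, more *ND5* in 4, more *ND1*, *ND4L* and *COX1* in 5 and more of the other genes in 6. The study's methods mention several batches and library types that differed in RNA strand and in single-end or paired-end sequencing. The authors chose reads to match the strand as far as they could. Which library belonged to which is not given in the sources used here, and the part of strand or batches was not tested.

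**Figure D5:**
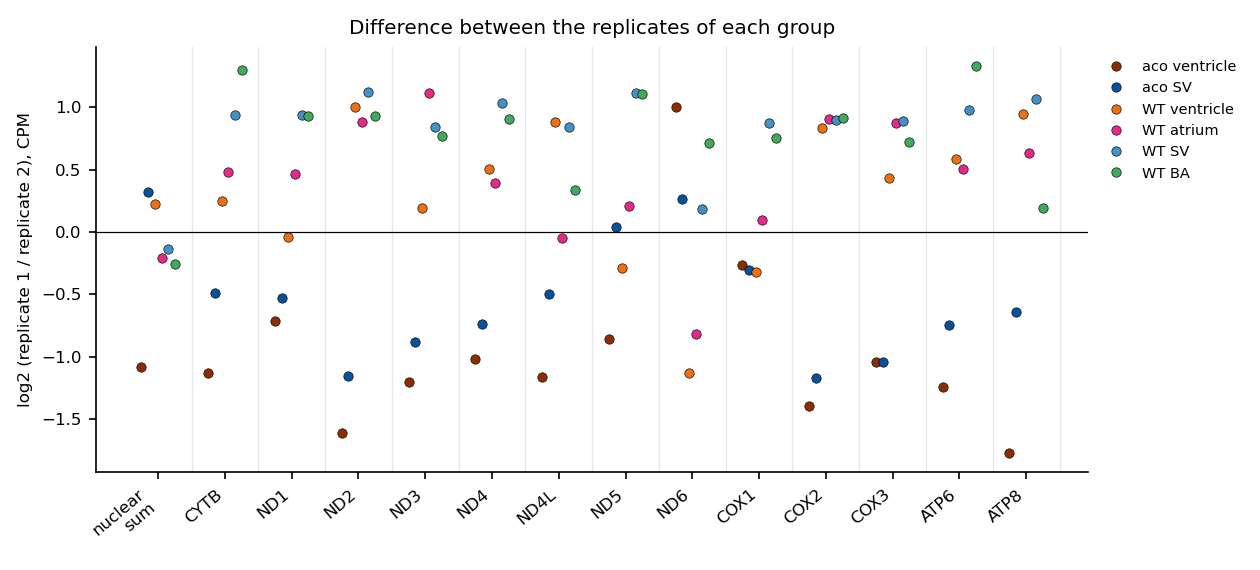
Log2 ratio of replicate 1 to replicate 2 in CPM (vertical axis) for the sum of the nuclear genes and for each mitochondrially encoded gene, 1 point per group. *ND6* lies on the other side of 0 from most mitochondrially encoded genes in mutant ventricle (168 and 83.9 CPM), mutant SV (22.85 and 19.02 CPM), WT ventricle (89 and 194.5 CPM) and WT atrium (46.2 and 81.3 CPM), and on the same side in WT SV and WT BA.

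Of the other mitochondrial genes, the lists of the tricarboxylic acid cycle, assembly factors and carriers followed the subunits, and the regulators did so less. Of 21 genes of the tricarboxylic acid cycle tested, which supplies NADH and succinate, 18 were called higher and 1 lower in WT ventricle than SV. Of all genes 16.2% were higher and 19.4% lower. The median of the list was 3.48. *idh2*, a mitochondrial isocitrate dehydrogenase, had 5608 and 6419 CPM in WT ventricle and 290.3 and 170.3 CPM in WT SV (4.78 ± 0.45, adjusted p = 5.05e-05). The gene called lower was *ogdhb*, a paralogue for a subunit of oxoglutarate dehydrogenase, with 1.105 and 1.29 CPM in WT ventricle and 8.095 and 13.1 CPM in WT SV, while *ogdha* was higher (3.48). In the mutants 18 genes of the list were higher and 1 lower in ventricle than SV (all genes 11.1% higher and 9.86% lower).

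Of 46 assembly factors tested, the 4 sdhaf genes included, 41 were called higher in WT ventricle than SV and 0 lower. Of all genes 16.2% were higher and 19.4% lower. At an unadjusted p under 0.05 there were 42 assembly factors, against 45.9% of all genes, and their median was 2.15. *lyrm7*, which takes part in inserting the Rieske protein into complex III, had 28.25 and 22.2 CPM in WT ventricle and 2.38 and 2.19 CPM in WT SV (3.35 ± 0.62). Of 21 genes for electron, nucleotide and phosphate carriers, ubiquinone synthesis, porins and mitochondrial creatine kinases, 19 were higher and 1 lower. The median of these 21 genes was 2.81, and the shares over all genes are those given for the assembly factors. *ckmt2a*, a sarcomeric mitochondrial creatine kinase, had 858 and 1347 CPM in WT ventricle and 4.57 and 1.98 CPM in WT SV (8.403 ± 1.02).

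*ckmt1*, the ubiquitous form of that kinase, was the gene called lower in WT ventricle, with 1.302 and 2.79 CPM in WT ventricle and 50.35 and 30.02 CPM in WT SV. It was also the only gene of these lists called between mutant and WT tissues, with 6.39 and 2.05 CPM in mutant SV and 50.35 and 30.02 CPM in WT SV (-3.94 ± 0.47, adjusted p = 0.00207), where both mutant libraries were the lower. The 10 enterocyte and liver markers summed to 4806 and 549.9 CPM in mutant SV and 1816 and 2371 CPM in WT SV, a sum of markers that went different ways. In 5 of the 10, as in *ckmt1* and in 23.56% of all genes, both mutant libraries were the lower, *cdhr2* and *slc6a19a.1* being at 0 in both of them. *chia.1*, a chitinase gene, had 0.1603 and 0.0481 CPM in mutant SV and 937 and 893 CPM in WT SV. *fabp2*, the intestinal fatty acid-binding protein, had 3.11 and 0.481 CPM in mutant SV and 115 and 138 CPM in WT SV. *apoa4b.1*, an apolipoprotein gene, had 1.28 and 3.68 CPM in mutant SV and 289 and 386.5 CPM in WT SV. *tfa*, for transferrin, was higher in both mutant libraries, as were 24.02% of all genes, with 1239 and 149 CPM in mutant SV and 108 and 129 CPM in WT SV. The other 4 markers overlapped. These markers were named after their values were seen, and the part of these cell types was not tested.

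Between the chambers *slc25a4*, an ADP/ATP carrier, had the largest called difference of the carrier list. It had 128 and 42.75 CPM in WT ventricle and 0.426 and 0.161 CPM in WT atrium (7.98 ± 1.67, adjusted p = 0.0238). In mutant ventricle it had 0.578 and 32.2 CPM, replicates far apart. *slc25a5*, of the same list and named after its values were seen, had 34512 and 32053 CPM in WT ventricle and 13433 and 16113 CPM in WT atrium.

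Of 19 regulators of mitochondrial genes tested, 8 were called higher in WT ventricle than SV and 0 lower (all genes 16.2% higher and 19.4% lower). At an unadjusted p under 0.05 there were 9 of the 19, near the share of 45.9% over all genes. The median of the list was 0.7996, below the 3.503 of the nuclear genes. *ppargc1a*, a coactivator that promotes mitochondrial biogenesis, had 36.5 and 104 CPM in WT ventricle and 0.457 and 1.07 CPM in WT SV (6.798 ± 0.62, adjusted p = 4.66e-05). In the mutants it had 21.2 and 33.55 CPM in ventricle and 1.01 and 0.1685 CPM in SV (6.22 ± 0.63). Both ventricle libraries were above both SV libraries in each genotype, as for 31.6% of all genes in WT fish and 27.45% in mutants. *tfam*, which packages and helps transcribe mitochondrial DNA and was named after its values were seen, had 26.4 and 28.6 CPM in WT ventricle and 14.6 and 15.7 CPM in WT SV (0.87 ± 0.303, adjusted p = 0.0442).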

How the data were processed

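RNA was measured by RNA-seq in 12 libraries of 6 groups, taken from titles and genotype labels. The authors trimmed reads with cutadapt, aligned unique reads with STAR to danRer11 and counted them by gene with featureCounts, using strand and letting a read count for each gene that held most of its length. The deposited values are raw counts per gene, which the tests used, and FPKM, which the authors scaled by DESeq2 size factors and gene length. The authors' deposited fold changes, p-values and group means were not used. Names of 13 genes outside the set stand as dates in the table. Members and lists were chosen with earlier results of these data known.

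edgeR 4.0.16 in R 4.3.3 fitted group and 1 RUVs factor to all 12 libraries (TMM scaling, filterByExpr, quasi-likelihood test, two-sided, Benjamini-Hochberg adjustment over all genes tested). The methods were also run on simulated data where few genes changed, and only in WT SV. Tissue differences as wide as those seen here were not simulated. Named genes are the 13 mitochondrially encoded genes, the 2 largest and 1 smallest differences of WT ventricle over SV per complex at a mean of at least 10 FPKM, paralogue families, genes opposite to their complex, and the leading called gene of each other list. Alternatives were DESeq2 1.42.0, its size factors, no filter, no factor, a replicate block, omission of the mitochondrially encoded genes, each library left out and, chosen after seeing the data, library totals. Library totals of 28325098 to 60532949 counts put 1 read at 0.0229 to 0.0294 CPM, and counting intervals cover counting error only. With 2 libraries against 2, an exact permutation test cannot give a p below 0.3333. Current names were looked up by symbol in RefSeq (assembly GRCz12tu), where 83 of the 103 names matched and 20 matched as synonyms. Sequences are not used here.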

Additional observations from a re-analysis of the deposited data

How the results depend on the processing

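The direction of the median difference between chambers and vessels was the same in every alternative, for both gene sets. With DESeq2 in place of edgeR, 45 nuclear and 2 mitochondrially encoded genes were called between WT ventricle and WT atrium and 3 nuclear genes between mutant and WT ventricle, and the cause was not tested. Without the RUVs factor no nuclear gene was called between WT SV and WT BA.

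Leaving out 1 library at a time gave 83 to 86 nuclear calls for WT ventricle over WT SV, 84 to 86 over WT BA, 71 to 83 for WT atrium over WT SV, 72 to 84 over WT BA, 75 to 86 for mutant ventricle over mutant SV, 0 to 30 for WT ventricle over WT atrium, 1 to 2 for WT SV over WT BA, 0 to 1 for mutant over WT SV and 0 to 2 for mutant over WT ventricle. The mitochondrially encoded genes gave 13 calls in each such fit for ventricle over SV or BA and 12 to 13 for atrium over either vessel. Where 1 library was left in a group, it was assumed to vary like the others. Shares over all genes were not taken in these fits, so the ranges only describe how stable the calls were.

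With a replicate block in place of the factor, 0 nuclear genes were called for WT ventricle over WT atrium and 0 for WT SV over WT BA. The labels number the libraries 1 and 2 in each group, but deviations of same-numbered libraries correlated at -0.440 to 0.256 between groups, so the numbers were not taken to pair them. Scaling by library totals, chosen after seeing the data, shifted the median of all genes by -0.82 to 0.51 and turned the mitochondrially encoded median of mutant over WT ventricle to 0.06 and the nuclear median of mutant over WT SV to 0.20. With 2 libraries a group, differences of the size seen between mutant and WT ventricle could be called or lost by 1 library.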
